A study of Homo sapiens with 6 samples.

Results

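Collagen chain genes encode the alpha chains that wind around each other into collagen molecules. Their members were taken by name: every row of the gene table whose whole symbol is COL, a number, A and a number, with a value above 0 in at least 3 of the 6 libraries. The rule found 31 of the 17187 genes in the table, and all 31 passed the filter for the test. Another 4 collagen rows fell outside it. COL3A1 had a value in control 2 alone and COL20A1 in IFNg 1 alone, while COL6A5 and COL9A3 each had one in 2 libraries. COL2A1, COL4A3, COL5A3, COL6A6, COL9A1, COL14A1, COL23A1, COL26A1 and COL28A1 were not analysed here.

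The cells were HT-1080, a human fibrosarcoma line obtained from ATCC and labelled WT. Controls received PBS, and the treated cells received recombinant interferon gamma (IFNg), a cytokine of activated T cells and natural killer cells, at 10 ng/ml for 8 h. Each group had 3 libraries of total RNA depleted of ribosomal RNA. No label states whether each library was a culture of its own, so the p-values below reflect the spread between libraries, and that spread may be technical. In RNA from many cells together, fewer cells expressing a gene and less RNA per cell cannot be told apart.

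Between 59556948 and 83501954 reads were assigned to genes per library. A normalised read count is a whole number of reads scaled by 1 factor per library, so that 1 read was worth 0.835 to 1.16, and it is not divided by gene length. The interferon response was present: IRF1, an interferon-induced transcription factor, rose from 624 ± 324 to 28355 ± 2187 normalised reads (mean ± SD, n = 3 each; limma adjusted p = 3.70e-08). Of the mesenchymal markers, 6 of 7 were in the table. Their summed level was 518621 to 538148 in controls and 480578 to 512215 after IFNg. VIM (314888 to 406141 over all libraries) and FN1 (84982 to 169309) were the highest of them. S100A4 (19.5 to 83.5) lay below LYZ of the leukocyte list (97.6 to 157) in every library. The sums were far lower for epithelial markers (3 of 6 in the table, 37.6 to 67.2 and 37.2 to 78.0), leukocyte markers (5 of 6, 125 to 175 and 150 to 192) and endothelial markers (4 of 5, 66.2 to 97.7 and 42.9 to 99.2). Among the latter lists, CLDN4, LYZ, PECAM1 and TEK had reads in all 6 libraries. KRT5, ESRP1, CD3E and CD14 were at 0 in every control library. KRT5 had reads in IFNg 3 alone (18.5), and ESRP1 (12.4) and CD14 (28.9) in IFNg 2 alone. CD3E was at 10.3 in IFNg 2 and 25.5 in IFNg 3, and at 0 in IFNg 1. CDH5 had reads in control 3 alone (7.79).

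Collagens are secreted or membrane-bound trimers with a triple-helical region. Fibrillar collagens bear tension in connective tissue, type IV collagens form the network of basement membranes, and type VI collagen forms beaded microfibrils around cells. Other classes include collagens that attach to fibrils, span the cell membrane, form hexagonal networks or link basement membranes to the tissue beneath. Fibrosarcoma cells of the HT-1080 line are known for making type IV collagen, and IFNg is known to lower type I collagen transcripts in fibroblasts. Mixed trimers need their chains in fixed proportion, so chain genes of 1 collagen type are often read as pairs.

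The stretches of DNA where transcription of these genes starts are shown for 4 windows, from the RefSeq table on GRCh38.p14. The first is shown because COL4A1 and COL4A2, which encode the partner chains of the common type IV trimer, are transcribed away from each other from neighbouring starts on chromosome 13. The 126 bases between their RefSeq start sites lie at chr13:110307158-110307283, written on the plus strand, on which COL4A2 runs to the right. GENCODE 29 also lists start sites beyond these, so that its gene records of COL4A1 (110148963 to 110307233) and COL4A2 (110305812 to 110513209) overlap. The second window is the 250 bases before the start of COL4A5 at chrX:108439588-108439837 on the plus strand, the type IV gene with the lowest adjusted p below. Capitals mark a CCAAT box or its reverse complement, and a GGGCGG box.
COL4A1-COL4A2: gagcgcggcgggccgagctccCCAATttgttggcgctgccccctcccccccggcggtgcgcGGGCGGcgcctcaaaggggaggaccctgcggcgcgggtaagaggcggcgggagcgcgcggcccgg
COL4A5: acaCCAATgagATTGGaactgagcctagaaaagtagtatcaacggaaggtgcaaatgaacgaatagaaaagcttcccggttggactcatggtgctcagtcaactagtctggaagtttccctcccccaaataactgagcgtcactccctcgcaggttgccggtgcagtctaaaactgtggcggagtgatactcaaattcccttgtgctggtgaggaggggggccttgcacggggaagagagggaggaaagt

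The other windows are shown because they hold letters known from promoters that respond to interferons. In capitals are the 2 matches to TTCNNNGAA, known as the gamma-activated sequence, before the start of COL7A1 (chr3:48595443-48595521, minus strand), and the match to the core of the interferon-stimulated response element (ISRE), GAAA and GAAA with 2 bases between, which interferon regulatory factors read, before the start of COL17A1 (chr10:104086068-104086130, minus strand). Both are written 5′ to 3′ on the strand of the gene, and the COL17A1 match lies on the opposite strand.
COL7A1: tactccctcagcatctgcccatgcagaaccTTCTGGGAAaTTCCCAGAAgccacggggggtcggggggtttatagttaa
COL17A1: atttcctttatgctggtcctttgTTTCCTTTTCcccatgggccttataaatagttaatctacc

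Windows of 250 bases before to 50 bases after a start site were listed for 25 of the 31 genes, and COL1A1, COL1A2, COL5A2, COL6A1, COL8A1 and COL22A1 were without one. Both strands were searched. TTCNNNGAA was in the windows of COL7A1 and COL11A2, or 8% of the 25, against 9.38% of 27305 genes. The ISRE core was in that of COL17A1, or 4% against 4.38%. CCAAT was in 9 (36% against 39.7%), GGGCGG in 17 (68% against 48.3%) and TATAAA in 6 (24% against 14%). No motif searched contains another, and a match is a string of letters, not a site shown to be bound.

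None of the 31 collagen chain genes differed between IFNg and control cells in the limma test with Benjamini-Hochberg adjustment at 0.05. Over all 15546 tested genes 4.32% were called, of which 3.27% were higher and 1.05% lower after IFNg. At an unadjusted p under 0.05 limma found 1 collagen gene, COL21A1, lower after IFNg, where 6.46% of all tested genes were lower by that rule. Neither of the other tools called a collagen gene. In edgeR 0 of 26 were called (665 or 4.69% of all its 14187 genes). In DESeq2 it was 0 of 30 (1048 or 6.90% of all its 15187 genes). At an unadjusted p under 0.05 edgeR found COL21A1, and DESeq2 found COL21A1 and COL25A1, lower after IFNg in each case. How many of all genes passed that unadjusted p in edgeR and DESeq2 was not counted, so no share can be set beside these. The number of collagen genes called stayed 0 in all 17 alternative settings.

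The size of difference that the libraries allow separated the abundant genes from the rest. For 13 genes with a mean of at least 500 normalised reads, log2 differences (IFNg minus control) ran from -0.25 to 0.18 with standard errors of 0.087 to 0.29. The 95% interval lay within 1.5-fold either way for 11 of these, the exceptions being COL22A1 and COL5A1, and within 2-fold for all 13. Among all 9673 tested genes of that abundance, 75.4% had an interval within 1.5-fold and 5.72% were called. The 18 genes below a mean of 500 had standard errors of 0.25 to 1.54. No interval of these 18 lay within 1.5-fold, and 1, that of COL7A1, lay within 2-fold, so differences of 1.5-fold were not resolved in them.

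Over the 31 genes the median log2 difference was -0.10, with 20 values below 0 and 11 above. Over all tested genes the median was -0.01, and 52.2% of values were below 0. In COL4A1, COL4A5 and COL5A2 every IFNg library lay below every control library, which was so for 9.28% of all tested genes. In 0 collagen genes did every IFNg library lie above, against 10.7% of all tested genes.

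**Figure D1:**
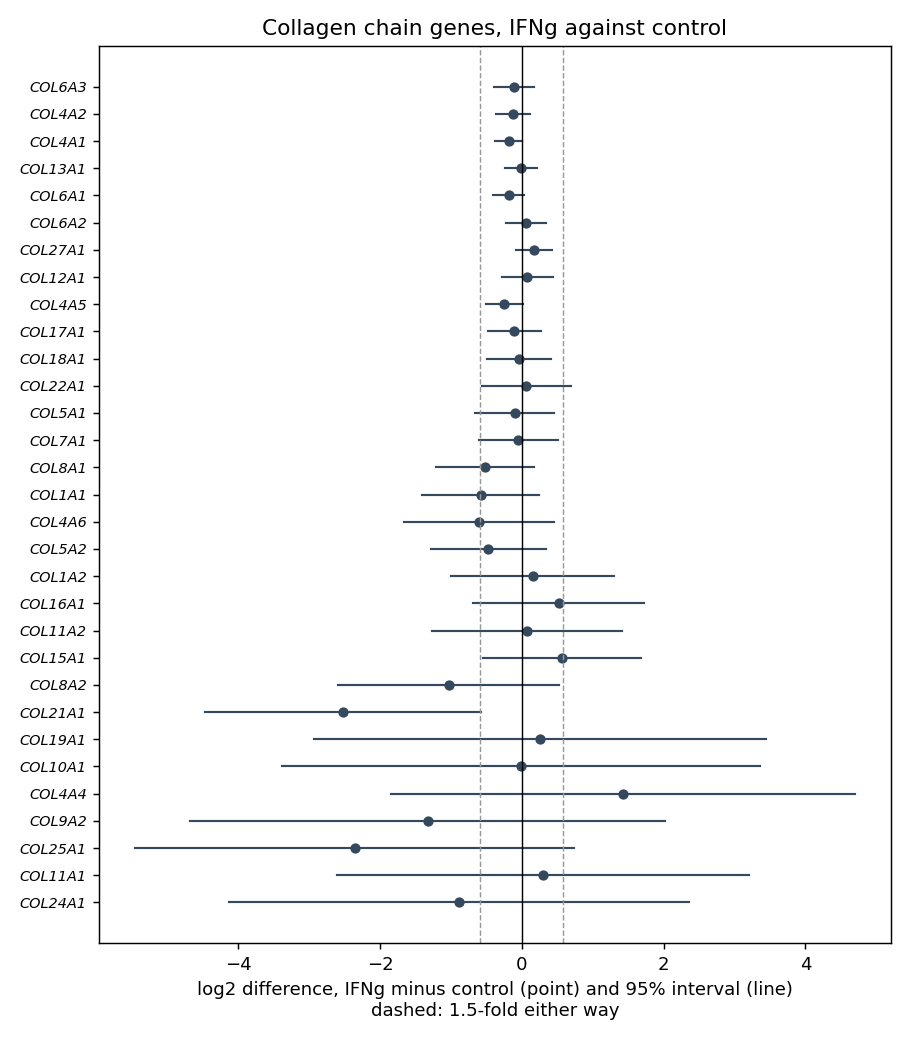
Log2 difference between IFNg and control (x axis) for the 31 collagen chain genes, ordered by mean level from top to bottom; points are limma estimates on log2(normalised read count + 1), lines their 95% intervals and dashed lines 1.5-fold either way. Intervals are narrow for the abundant genes at the top and span 0 for every gene except COL21A1, whose adjusted p was 0.178.

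Type VI collagen had the most abundant chain. COL6A3, the large chain that joins the products of COL6A1 and COL6A2, read 307067, 340012 and 269849 in control 1, 2 and 3 and 306971, 305471 and 239736 in IFNg 1, 2 and 3. The lowest value of each group was in the library numbered 3, and the groups overlapped. Its log2 difference was -0.11 ± 0.13 (SE; interval -0.39 to 0.18; limma adjusted p = 0.783). The gene lies on chromosome 2 (237324003 to 237414375, minus strand, GENCODE 29 on GRCh38).

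COL6A1 read 8678, 10584 and 9909 in controls and 8884, 8869 and 7937 after IFNg, with overlapping groups and a log2 difference of -0.18 ± 0.10 (limma adjusted p = 0.447). COL6A2 read 7167, 9109.8 and 7788 in controls and 8748, 9549.96 and 6898 after IFNg, also with overlap (0.06 ± 0.13, limma adjusted p = 0.892). These are neighbours on chromosome 21, both on the plus strand (45981737 to 46005050 and 46098097 to 46132849). Within a library the ratio of COL6A1 to COL6A2 was 1.22 ± 0.055 in controls and 1.03 ± 0.11 after IFNg. Each IFNg ratio lay below each control ratio, a log2 difference of -0.24 with an exact 2-sided permutation p of 0.1, the smallest that 3 against 3 allows, and 0.4 adjusted over the 4 pairs compared.

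Type IV collagen followed. COL4A2 read 36127, 45610.1 and 45228 in controls and 40068, 40418 and 35555 after IFNg. The groups overlapped, and the log2 difference was -0.12 ± 0.11 (interval -0.36 to 0.11; limma adjusted p = 0.657). COL4A1, its partner across the shared start region printed above, read 32076, 36217 and 37249 in controls and 30146, 30791 and 31940 after IFNg.

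All 3 IFNg values of COL4A1 lay below the lowest control value. The log2 difference was -0.18 ± 0.09, the smallest standard error among the collagen genes, with an interval of -0.37 to 0.01 and a limma adjusted p of 0.358. The ratio of COL4A1 to COL4A2 was 0.835 ± 0.048 in controls and 0.804 ± 0.082 after IFNg (log2 difference -0.06, exact permutation p = 0.6, adjusted 0.6).

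COL4A5, which encodes a chain of the basement membranes of kidney and skin, read 2904, 3155 and 2704 in controls and 2692, 2482 and 2210.2 after IFNg. The groups did not overlap, though 2692 and 2704 nearly met. Its log2 difference of -0.25 ± 0.12 (interval -0.51 to 0.01) was the most negative of the 13 abundant genes, with a limma adjusted p of 0.354. COL4A6, read away from COL4A5 from a start 379 or 1415 bases off, ranged from 95.4 to 236 in controls and from 66.0 to 205 after IFNg. COL4A4, a chain of the kidney filter, had no read in 3 of the 6 libraries and at most 18.6 normalised reads. Of the 5 type IV genes none passed the test, and 4 of 5 log2 differences were negative.

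**Figure D2:**
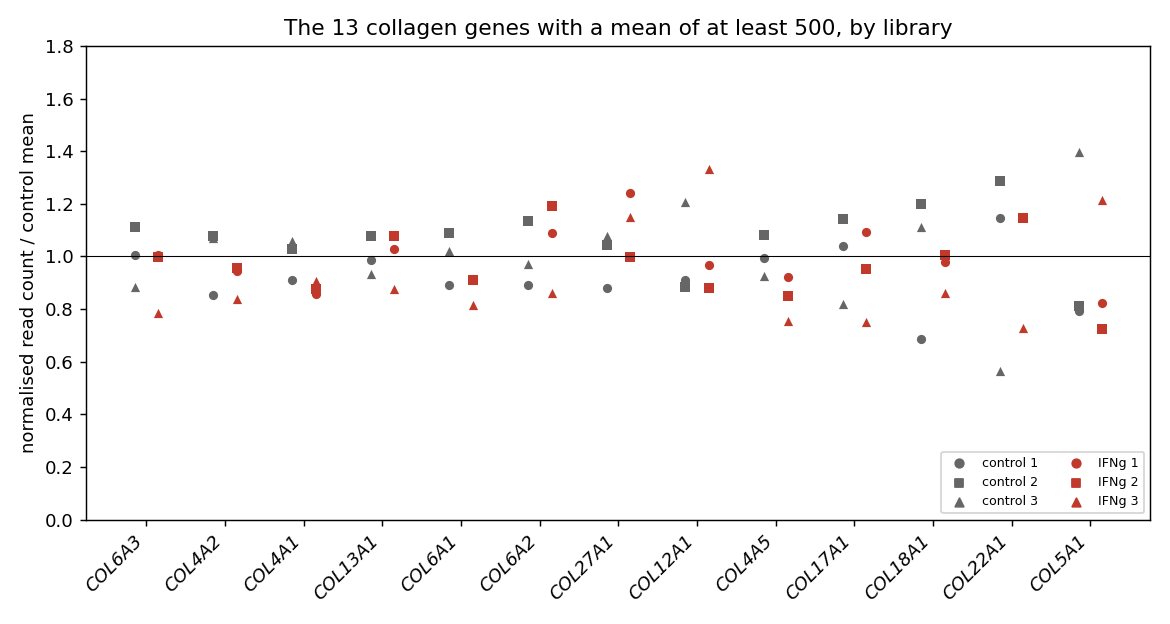
Normalised read count of each library divided by the control mean (y axis, linear from 0) for the 13 collagen genes with a mean of at least 500; gray points are control libraries, red points IFNg libraries, and shapes give the library number. Red and gray points mix in all but COL4A1 and COL4A5, and triangles (libraries numbered 3) stand above the rest in COL5A1 and COL12A1 and below it in COL22A1 in both groups.

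Transmembrane collagens span the cell membrane. COL13A1, found at cell adhesion sites and the neuromuscular junction, read 11549, 12620 and 10949 in controls and 12062, 12630 and 10262 after IFNg. These values overlapped closely, with a log2 difference of -0.01 ± 0.10 (interval -0.23 to 0.21; limma adjusted p = 0.98). COL17A1, a component of hemidesmosomes that anchor skin epithelium, read 1785, 1961 and 1409 in controls and 1876, 1635 and 1289 after IFNg.

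In COL17A1, whose window holds the ISRE core letters, the groups overlapped and the log2 difference was -0.11 ± 0.17 (limma adjusted p = 0.845). COL25A1, a collagen of neurons and muscle innervation, had 34 reads over the 3 control libraries and 1 read over the 3 IFNg libraries. Scaled for the total reads of the groups, the ratio of control to IFNg was 31.3, with a 95% exact binomial interval of 5.25 to 1271 that covers counting error only. Such a ratio was not planned and is given for COL25A1 and COL24A1 alone. It is not given for COL21A1 (146 and 25 reads), COL9A2 (35 and 6 reads) or COL10A1 (46 and 16 reads). Libraries of 1 group differed by more than counting error, so the binomial interval does not measure a treatment difference. The control reads of COL25A1 came from control 2 and 3 (16.7 and 13.6 normalised reads), with 0 in control 1. For COL25A1 limma gave -2.36 ± 1.42 (interval -5.45 to 0.74) with an adjusted p of 0.488. That log2 difference was -3.69 without control 1, -1.62 without control 2 and -4.77 in DESeq2.

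Among fibrillar collagens COL27A1, a chain of cartilage and other developing tissues, was the most abundant. It read 4486, 5312 and 5496 in controls and 6336, 5091 and 5867 after IFNg, overlapping, with the highest log2 difference of the abundant genes (0.18 ± 0.12; limma adjusted p = 0.531). COL5A1, a chain of type V collagen that regulates the width of fibrils, read 653, 668 and 1149.6 in controls and 679, 597 and 999.7 after IFNg. Both libraries numbered 3 were high, and the log2 difference between treatments was -0.10 ± 0.26 (limma adjusted p = 0.911).

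COL1A1 and COL1A2, the chains of type I collagen of skin and bone, were both under a mean of 500. COL1A1 ranged from 177 to 533 in controls and from 169 to 227 after IFNg, with the highest value in control 3 (-0.58 ± 0.38, interval -1.40 to 0.24; limma adjusted p = 0.53). COL1A2 ranged from 32.1 to 102 and from 47.5 to 98.5 (0.15 ± 0.52, interval -0.99 to 1.30; limma adjusted p = 0.939). The ratio of COL1A1 to COL1A2 was 4.87 ± 2.12 in controls and 2.94 ± 1.60 after IFNg, a log2 difference of -0.74 with an exact permutation p of 0.2 (adjusted 0.4).

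COL5A2, the partner of COL5A1, ranged from 106 to 136 in controls and from 63.7 to 101 after IFNg without overlap (-0.47 ± 0.37, limma adjusted p = 0.619). The ratio of COL5A1 to COL5A2 was 6.70 ± 1.53 and 9.45 ± 5.42 (log2 difference 0.38, exact permutation p = 0.6, adjusted 0.6). Without IFNg 3 that log2 difference was -0.06. Type XI chain genes, known from cartilage, were lower still. COL11A2 ranged from 20.4 to 93.0 over all libraries and COL11A1 from 0 to 9.30. COL24A1, a fibrillar chain of developing bone, had 17 reads in controls, nearly all in control 2, and 3 after IFNg. Scaled for total reads, the ratio of control to IFNg was 5.21 (95% exact binomial interval 1.51 to 27.8, counting error only). In limma COL24A1 was at -0.89 ± 1.48 (adjusted p = 0.852), and at 0.23 without control 2. Of the 8 fibrillar genes 4 log2 differences were negative and 4 positive, and none passed the test.

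FACIT collagens attach to the surface of fibrils. COL12A1, an interfibrillar collagen of dense connective tissue, read 2874, 2789 and 3807 in controls and 3060.5, 2781 and 4208 after IFNg. COL22A1, a collagen of tissue junctions such as that of muscle and tendon, read 1112, 1249 and 550.0 in controls and 1115, 1110.7 and 707 after IFNg. In both the library numbered 3 departed from the other two of its group, upward in COL12A1 and downward in COL22A1, and treatment groups overlapped (log2 differences 0.08 ± 0.17 and 0.07 ± 0.29).

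COL21A1, a FACIT collagen of blood vessel walls, was the gene with the lowest p in the list. It read 87.8, 40.1 and 15.6 normalised reads in controls and 17.7, 2.07 and 4.63 after IFNg, from 146 and 25 reads in all. The groups overlapped because IFNg 1 lay above control 3, and the control values were themselves far apart. Its log2 difference was -2.52 ± 0.89 (interval -4.47 to -0.57), with a limma adjusted p of 0.178 and a range over the 17 other settings of 0.0506 to 0.489. Leaving out 1 library moved that log2 difference between -1.93 (without control 1) and -3.24 (without IFNg 1). COL16A1, found in fibrils of skin and cartilage, ranged from 21.4 to 89.2 over all libraries. COL19A1, found in basement membrane zones and muscle, ranged from 0 to 25.1 and COL9A2, a cartilage chain, from 0 to 32.1.

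The remaining classes were modest in level. COL18A1, the multiplexin of basement membranes from which endostatin is released, read 771, 1346 and 1249 in controls and 1099, 1128 and 965 after IFNg (-0.04 ± 0.21; limma adjusted p = 0.963). COL15A1, the other multiplexin, ranged from 30.2 to 79.9. COL7A1, the anchoring fibril collagen whose window holds both TTCNNNGAA matches, ranged from 311 to 536 in controls and from 345 to 467 after IFNg (-0.05 ± 0.25, interval -0.60 to 0.51; limma adjusted p = 0.963).

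Short-chain collagens form hexagonal networks, such as that beneath the corneal endothelium. COL8A1 ranged from 270.0 to 382 in controls and from 158 to 324 after IFNg (-0.52 ± 0.32; limma adjusted p = 0.494), and COL8A2 from 44.3 to 62.1 and from 11.6 to 89.2. COL10A1, the marker of hypertrophic cartilage, had at most 43.8 normalised reads, in control 3. All 3 of these log2 differences were negative and none passed the test.

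**Figure D3:**
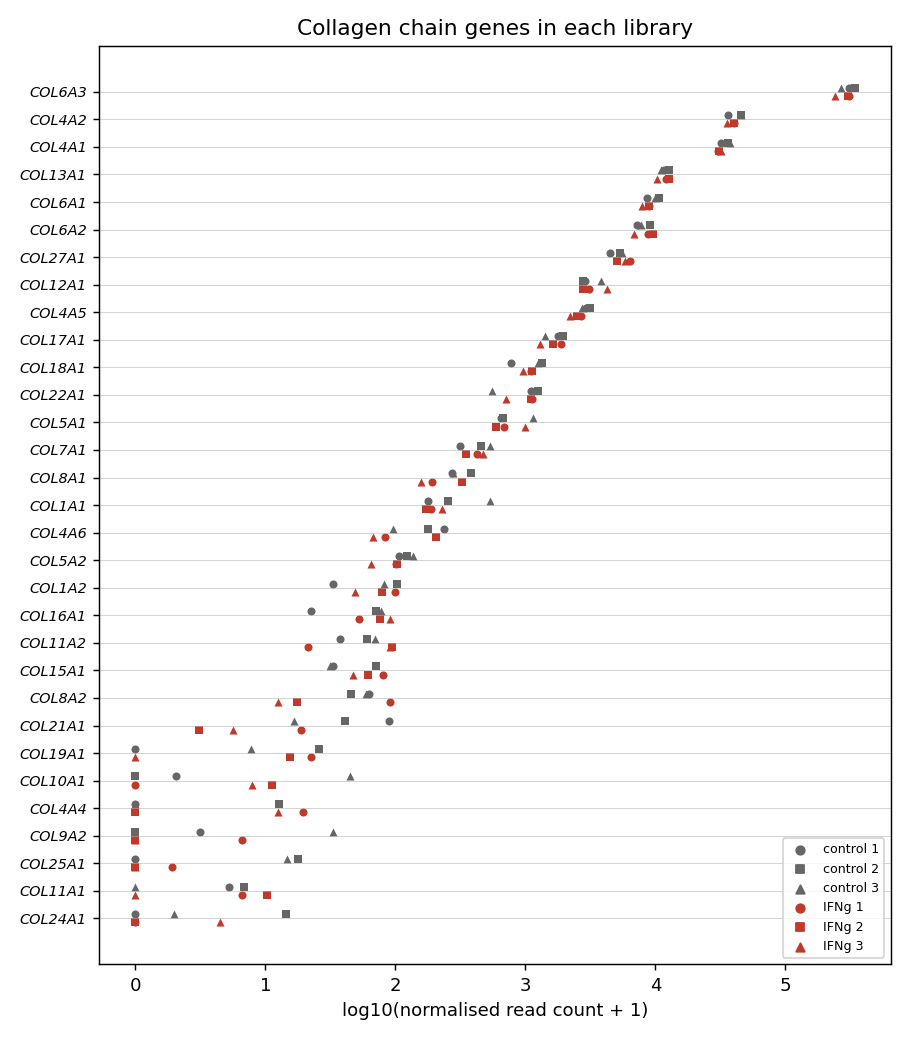
Level of each collagen chain gene in each library, as log10(normalised read count + 1) on the x axis, not corrected for gene length; gray marks are control libraries, red marks IFNg libraries, and shapes give the library number. The spread between libraries of 1 group widens from the top of the list to the bottom, where 7 genes have libraries at 0.

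To compare levels between genes, values were divided by the length of the GENCODE 29 transcript with the longest coding sequence. COL6A3 stood at 28435 ± 3266 normalised reads per kb in controls and 26427 ± 3572 after IFNg. COL4A2 (6517 ± 827 and 5956 ± 418) and COL4A1 (5318 ± 414 and 4679 ± 137) followed, then COL13A1 (3673 ± 266 and 3656 ± 388). The distance from COL6A3 to the next gene was many times the spread between libraries.

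COL6A2 (2318 ± 287 and 2427 ± 393 per kb) and COL6A1 (2294 ± 228 and 2021 ± 128 per kb) did not differ in level beyond their spread in controls at these transcript lengths. COL27A1 came next at 654 ± 69.0 and 740 ± 80.7 per kb, and COL4A5 at 451 ± 34.9 and 380 ± 37.2 per kb. The chains of type I collagen were far below, with COL1A1 at 47.8 ± 27.9 and 28.9 ± 4.39 per kb. Lengths of all annotated exons merged moved COL4A2 from the second to the fourth place, because its merged exons span 12971 bases against 6494 for the transcript, and left COL6A3 first. By merged exons COL6A1 (2293 ± 228 per kb in controls) lay above COL6A2 (1822 ± 225 per kb) in each control library.

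**Figure D4:**
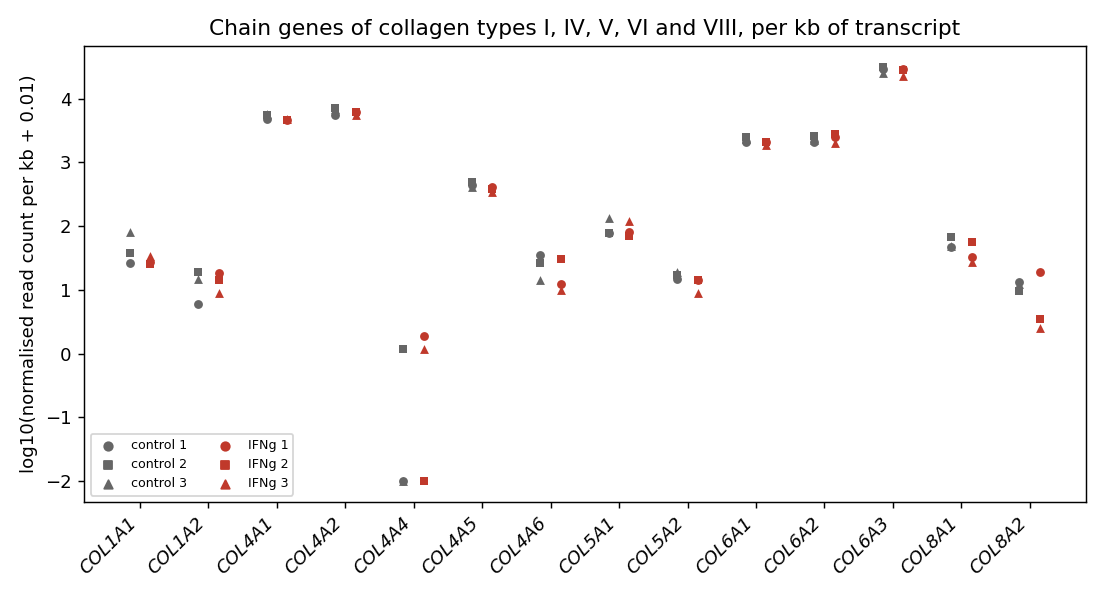
Chain genes of collagen types I, IV, V, VI and VIII in normalised reads per kb of transcript, as log10(value + 0.01) on the y axis, by library; gray marks are controls and red marks IFNg, and marks at the bottom for COL4A4 are libraries with 0 reads. COL6A3 lies above COL6A1 and COL6A2, and COL4A1 and COL4A2 lie above COL4A5 and COL4A6, in every library of both groups.

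Together the 31 genes held 0.619 ± 0.051% of all normalised reads in controls and 0.576 ± 0.060% after IFNg. COL6A3 made up 71.0 ± 3.02% and 70.9 ± 2.08% of that sum, and COL4A1 with COL4A2 18.1 ± 2.28% and 17.5 ± 1.53%. The makeup of collagen reads differed between treatments by less than the spread between libraries. Before correction for length, COL6A3 ranked between 8 and 12 among all genes of a library.

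Libraries numbered 3 stood apart in some collagen genes in both groups, at shares near those of all tested genes. COL12A1, COL16A1, COL1A1, COL4A1, COL5A1 and COL7A1 were above both other libraries of their group in control 3 and in IFNg 3, or 6 of 31 genes against 18.2% of all tested genes. COL11A1, COL13A1, COL15A1, COL17A1, COL22A1, COL4A5, COL4A6 and COL6A3 were below both in each group, or 8 of 31 against 18.2%. Relative to the mean of the other two, COL5A1 stood at 1.74 in control 3 and 1.57 in IFNg 3. The same ratio was 0.466 and 0.635 for COL22A1 and 0.834 and 0.783 for COL6A3.

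In COL5A1, COL22A1 and COL6A3 both of these ratios were farther from 1 than the fold between treatments, which was 0.931, 1.05 and 0.928. The labels name no batch for the numbers, and what the libraries numbered 3 share was not tested. Without both, limma again called 0 of the 31 genes.

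**Figure D5:**
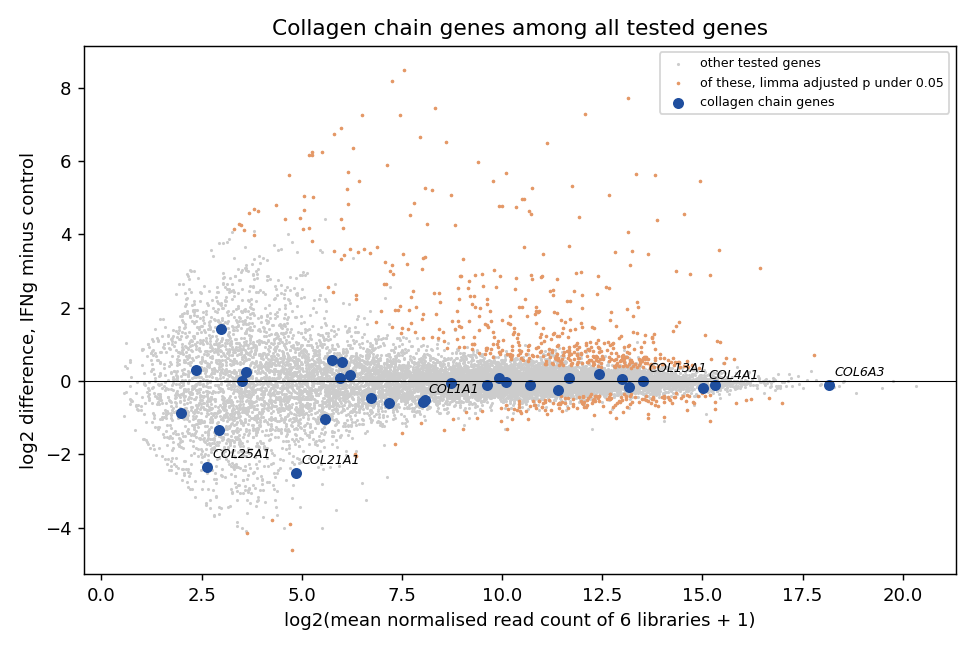
Log2 difference between IFNg and control (y axis) against log2 of the mean normalised read count + 1 (x axis) for the 15546 tested genes; blue points are the 31 collagen chain genes, orange points other genes with a limma adjusted p under 0.05 and gray points the rest. The abundant collagen genes lie near 0 at the right, and COL21A1 and COL25A1 lie low at the left among gray points.

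The genes that make, modify and receive collagen were described from 8 lists with 101 tested genes. Of these 2 were higher and 2 lower after IFNg in the limma test. Over all tested genes 3.27% were higher and 1.05% lower. In prolyl and lysyl modification none of 15 was called (median log2 difference -0.05). P4HB, a subunit of prolyl hydroxylase, was at 44744 ± 2512 and 47428 ± 2829, and the lysyl hydroxylase gene PLOD2 at 38084 ± 2476 and 44525 ± 4944 (0.22 ± 0.10, limma adjusted p = 0.315). In folding and export none of 12 was called (median -0.09). The collagen chaperone genes FKBP10 (-0.06 ± 0.10) and SERPINH1 (-0.17 ± 0.11) had limma adjusted p-values of 0.856 and 0.543.

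Of 13 genes for propeptide cleavage and cross-linking limma called none (median -0.10), with LOXL2 at -0.10 ± 0.10 and LOX at 0.09 ± 0.10, both lysyl oxidases. None of 11 receptors was called by limma (median -0.14). DDR2, a collagen-binding receptor kinase named here after its values were seen, was at 13490.3 ± 1360.4 and 10532 ± 544 with a limma adjusted p of 0.0685, and DESeq2 called it lower. The integrin subunits ITGB1 and ITGA2, which form a collagen receptor together, differed by -0.03 ± 0.10 and 0.05 ± 0.09. None of 8 collagen-cleaving proteases was called (median -0.01), with MMP14 at -0.18 ± 0.12 and MMP2 at -0.19 ± 0.19. Of 7 fibril-associated matrix genes limma called none (median -0.06), with FN1 at -0.24 ± 0.22 and THBS1 at -0.06 ± 0.26. Without both libraries numbered 3, limma called TNC higher, an adhesion-modulating matrix protein also named after its values were seen.

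Among 15 basement membrane partners of type IV collagen 1 was lower and 0 higher (median -0.14). LAMB3, the beta chain of laminin-332, read 114702, 135824 and 108610 in controls and 90249.5, 88688 and 80496 after IFNg. All IFNg values lay below all control values, and LAMB3 fell by 0.46 ± 0.11 on the log2 scale (limma adjusted p = 0.027). The call was lost without a variance trend (0.201) and without any 1 library other than control 3 (0.0571 to 0.170). LAMC1, the gamma chain of most laminins, and SPARC, which binds collagen, were not called (-0.20 ± 0.13 and -0.24 ± 0.11; limma adjusted p = 0.521 and 0.296). Without both libraries numbered 3, SPARC was called lower.

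Among 20 genes listed as regulators of collagen synthesis, which include the secreted proteins CTGF and TGFB1, 2 were higher and 1 lower (median -0.01). CIITA, the class II transactivator, rose from 383 ± 101 to 12536 ± 116 (log2 difference 5.06 ± 0.17, limma adjusted p = 2.03e-09). RFX5, a DNA-binding partner of CIITA at MHC class II promoters, rose from 4621 ± 159 to 7147 ± 313 (0.63 ± 0.09, limma adjusted p = 0.00119). Both are known as repressors that act near the start of COL1A2, whose own interval ran from -0.99 to 1.30.

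CTGF, a matrix protein that promotes collagen synthesis in fibroblasts, read 64164, 62008 and 28507 in controls and 24208, 24647 and 19909 after IFNg. The groups did not overlap, and control 3 was closer to the IFNg libraries than to the other controls. CTGF fell by 1.09 ± 0.24 on the log2 scale (limma adjusted p = 0.0256). The call was lost without a variance trend (0.29) and without any 1 library other than control 3 (0.0596 to 0.147). YBX1 (-0.17 ± 0.10) and SMAD3 (0.0045 ± 0.081), the most abundant factors of the list that limma did not call, had adjusted p-values of 0.459 and 0.988.

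Genes with exons across those of the collagen genes were looked up. COL4A2-AS1, which shares 81 exon bases with COL4A2 on the opposite strand, had 3.89 normalised reads in control 3 and 0 elsewhere. COL19A1 shares 70 exon bases on the opposite strand with LMBRD1, whose mean of 864 was far above the 11.3 of COL19A1. Whether counting used the strand is not given in the sources used here, so some COL19A1 reads cannot be told apart from LMBRD1.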

How the data were processed

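RNA was measured in 6 HT-1080 libraries, 3 per group. Per the submitters' processing notes the authors used FastQC 0.11.3, TopHat2 2.0.13, Cufflinks and Cuffdiff 2.2.1 with builds hg19 and GRCh37, with no roles. Which counter made the reads per gene, and whether it used strand, is not given in the sources used here. By its name the table the authors deposited holds RPKM, but its values are another signal: in every library 100% of values were whole multiples of 1 step within 0.001 reads, so they are reads divided by 1 factor per library. The test planned for RPKM was kept.

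limma 3.58.1 (R 4.3.3) was fitted with a variance trend and a term for group to log2(value + 1), which understates differences of low genes, for the 15546 genes that reached 0.5 in 3 or more libraries; 1641 were removed. Tests were 2-sided with Benjamini-Hochberg adjustment over all tested genes at 0.05. edgeR 4.0.16 and DESeq2 1.42.0 were run on the recovered reads. Scripts were tested on simulated data. Libraries of 1 group differed by more than counting error (15.8 to 115, chi-square over degrees of freedom) and were counted singly. The collagen genes, the lists and the motifs were chosen with earlier results of these data known. Every collagen gene is named, with a value per library from a mean of 500; COL21A1 was added to these after its values were seen. From each list of other genes, those called and up to 2 others with the largest mean are named. The check of the treatment rests on IRF1; the other gene planned for it is not reported here. Lengths are from GENCODE 29.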

Additional observations from a re-analysis of the deposited data

How the results depend on the processing

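In all 17 alternative settings 0 collagen genes were called, and the smallest adjusted p was 0.0506 (COL21A1 with the replicate block). Over all genes limma called 509 higher and 163 lower. These counts were 279 and 41 without a variance trend, and 882 and 599 without replicate 3 of both groups. Leaving out 1 library gave 330 to 847 higher and 37 to 455 lower. DESeq2 called 339 lower. Whether replicate numbers pair the libraries is not given in the labels, and the main test used no pairing. Same-numbered libraries had correlations of deviations of 0.0437, 0.0209 and 0.111. The last, between control 3 and IFNg 3, was the highest of any control with any IFNg library. Control 2 did not correlate best with its own number. A replicate block gave 915 higher and 549 lower. Of the 101 genes around collagen limma called 2 higher and 2 lower, and without a trend 2 and 0. DESeq2 called 3 and 5, and limma without replicate 3 of both groups 3 and 10. The block called 4 and 8, adding among others DDR2, SPARC, FN1 and TNC. Over all tested genes the share called was 4.32% in limma and 2.06% without a trend. That share was 6.90% in DESeq2, 9.53% without replicate 3 of both groups and 9.42% with the block.

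The direction of 14 collagen genes was the same in every setting in which they were tested, and 17 turned in at least 1. COL10A1 was at 0.071 with a pseudocount of 0.5. Without replicate 3 of both groups the log2 difference was 0.032 for COL13A1, 0.13 for COL18A1, -0.083 for COL22A1, 0.030 for COL7A1, -0.082 for COL11A2, 1.23 for COL10A1 and 0.53 for COL9A2. Leaving out each library in turn gave log2 differences of -0.20 to 0.0091 for COL6A3, -0.071 to 0.079 for COL13A1, -0.039 to 0.20 for COL6A2, -0.10 to 0.22 for COL12A1, -0.24 to 0.041 for COL17A1, -0.29 to 0.11 for COL18A1, -0.30 to 0.29 for COL22A1, -0.32 to 0.16 for COL5A1 and -0.27 to 0.12 for COL7A1. Among less abundant genes these were -0.34 to 0.48 for COL1A2, -0.049 to 0.84 for COL16A1, -0.29 to 0.78 for COL11A2, -1.02 to 1.66 for COL19A1, -1.10 to 1.64 for COL10A1, -2.45 to 0.080 for COL9A2, -0.56 to 1.31 for COL11A1 and -1.69 to 0.23 for COL24A1. For the ratio of COL5A1 to COL5A2 the range was -0.062 to 0.64. The cause was not tested for any of these.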
